A study of Mus musculus with 9 samples.

Results

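This report concerns 48 genes of the TGF-beta, BMP and activin pathways, chosen by name and found among the 54838 Ensembl gene identifiers of a count table of a mouse pancreatic cancer line. The set was drawn up because Bmp2 was silent in the Zdhhc20 knockout clone and not in the other cells, so the level of Bmp2 in that clone is given below as a description, with no test. The other 47 genes were taken for their place in the pathways, with earlier results of these data known.

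PDA530 Met is a pancreatic ductal adenocarcinoma line grown out of a hepatic metastasis in a male KPC mouse, a genetic model of this cancer, on a mixed 129/SvJae/C57Bl/6 background, and all cells were harvested untreated in growth medium with serum. The knockout group (3 libraries) was 1 single-cell clone, here called E4, in which Zdhhc20, the gene of a palmitoyltransferase, was knocked out with CRISPR/Cas9. The control group (3 libraries) was 1 single-cell clone, here called C5, which received the same guide RNAs by nucleofection but stayed unedited and still expresses Zdhhc20. The uncloned parental line formed the remaining group (3 libraries), and the design text names it PDA50 Met. Each clone is a single isolate, so a difference between groups cannot be told apart from a difference between clones. The p-values measure the spread between replicate libraries within groups, estimated over the 9 libraries together. Each comparison thus also carries the spread of the group left out of it.

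TGF-beta superfamily ligands are secreted as dimers that bring together type I and type II receptor kinases on the cell surface. TGF-betas and activins then act mainly through SMAD2 and SMAD3, and BMPs through SMAD1, SMAD5 and SMAD9. SMAD4 joins both branches. SMAD6 and SMAD7 inhibit signalling and are themselves induced by it, and the Id genes, which encode inhibitors of basic helix-loop-helix factors, are known direct targets of BMP signalling. In pancreatic cancer the TGF-beta branch is known both to restrain growth of epithelial cells and to promote their change towards a mesenchymal state.

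The libraries held between 16525869 and 23192701 counts. Zdhhc20 was at 33.9 to 42.5 CPM (counts scaled to the library total after TMM normalisation) in the E4 libraries, 75.3 to 90.7 CPM in the parental libraries and 85.8 to 123 CPM in the C5 libraries. The 7 ductal carcinoma markers examined summed to 4320 to 4450 CPM in the E4 libraries, 7010 to 9380 CPM in the C5 libraries and 6700 to 8170 CPM in the parental libraries. Epcam was the 1 ductal marker near 0, at 0.635 CPM or less in every library. Its mean was highest in clone E4, at 0.61 CPM beside 0.15 CPM in clone C5 and 0.198 CPM in the parental line. Mean levels of Krt8, Krt18, Krt19 and Cdh1 were lower in clone E4 than in both other groups. Krt7 had means of 421 CPM in clone E4, 842 CPM in clone C5 and 395 CPM in the parental line. For Sox9 these were 10.7, 13.9 and 9.83 CPM. Markers of fibroblasts, hepatocytes, leukocytes and endothelial cells summed to at most 3.61 CPM per list, and the fibroblast genes Dcn, Lum and Col3a1 held 0 counts in all libraries. Most of the fibroblast sum came from Pdgfra, with means of 2.94 CPM in the parental line, 1.68 CPM in clone C5 and 0.702 CPM in clone E4. Whether the lower summed level of the ductal markers bears on the results below was not tested. In these bulk samples, fewer cells that express a gene and less RNA per cell cannot be told apart.

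The promoters of Smad6, Id2 and Id3 are shown because these genes are known to respond to BMP signalling and all 3 knockout libraries lay below all 3 parental ones for each of them, although Id3 was not called. Id1 met the same conditions, but the promoter set used held no window for it. Promoters of 35 of the 48 genes were searched, taken from RefSeq (GRCm38.p6), each a window of 300 bases from 250 before to 50 after the annotated start. Windows were searched on both strands for GGCGCC (a GC-rich element bound by BMP SMADs), for the palindrome GTCTAGAC and for CAGAC (both SMAD-binding elements), and matches are in capitals.
Smad6, chr9:64022010-64022309, minus strand: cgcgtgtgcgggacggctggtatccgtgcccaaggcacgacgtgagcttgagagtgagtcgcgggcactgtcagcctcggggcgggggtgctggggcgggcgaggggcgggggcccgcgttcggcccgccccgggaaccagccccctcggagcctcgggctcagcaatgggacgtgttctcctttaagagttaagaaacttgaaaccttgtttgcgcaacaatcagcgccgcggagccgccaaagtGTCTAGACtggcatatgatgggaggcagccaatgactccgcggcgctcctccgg
Id2, chr12:25096043-25096342, minus strand: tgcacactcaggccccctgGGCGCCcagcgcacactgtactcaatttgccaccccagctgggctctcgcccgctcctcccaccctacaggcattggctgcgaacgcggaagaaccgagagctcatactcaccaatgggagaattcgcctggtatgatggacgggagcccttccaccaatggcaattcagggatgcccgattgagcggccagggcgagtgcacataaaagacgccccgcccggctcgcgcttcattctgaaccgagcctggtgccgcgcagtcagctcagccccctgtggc
Id3, chr4:136143572-136143871, plus strand: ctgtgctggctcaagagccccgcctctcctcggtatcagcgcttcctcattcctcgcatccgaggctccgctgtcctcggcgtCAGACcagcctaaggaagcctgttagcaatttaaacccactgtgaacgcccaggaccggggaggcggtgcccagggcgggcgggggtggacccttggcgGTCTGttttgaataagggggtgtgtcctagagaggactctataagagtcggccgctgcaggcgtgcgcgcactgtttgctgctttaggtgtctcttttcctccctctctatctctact
The Smad6 window held GTCTAGAC, from 4 bases before the annotated start, a palindrome present in 70 of 32851 promoter windows (0.213%). The Id2 window held GGCGCC once, as did 11.9% of windows at least once. The Id3 window held CAGAC once on each strand, as did 49.6% of windows at least once on either strand. A match describes the sequence and shows no binding.

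Of the 48 genes, 38 passed the filter on low counts and were tested. The other 10 were Bmp7 and Nog, with 0 counts in all libraries, and Inhbb, Tgfbr3, Bmpr1b, Fst, Fstl1, Grem1, Bambi and Id4, with at most 12 counts in any group of 3 libraries. Leaving Bmp2 aside, 22 of 37 tested genes were called between clones E4 and C5 at an adjusted p under 0.05 (edgeR quasi-likelihood test, Benjamini-Hochberg over all 13153 tested genes), 13 higher and 9 lower in clone E4. Of all tested genes, 42.9% were called there, 18.7% higher and 24.2% lower. Against the parental line, 18 of 37 were called, 10 higher and 8 lower, where 31.4% of all genes were called, 13.1% higher and 18.3% lower. Between clone C5 and the parental line, 12 of 37 were called, 4 higher and 8 lower in clone C5, where 21.4% of all genes were called, with 10.4% of all genes higher and the rest of those called lower. Statements below that the libraries of a pair of groups did not overlap in CPM hold for 51.6% of all tested genes between clones E4 and C5, for 61.5% between clone E4 and the parental line and for 37.3% in the remaining comparison. These counts include Chrd as lower in clone E4 than in clone C5 and Smad9 as lower in both clones than in the parental line, which each passed the filter through the group where they were high. The median log2 fold changes of the 37 genes were 0.12, 0.10 and -0.18 in these comparisons, beside -0.02, -0.01 and 0.01 over all tested genes. Log2 fold changes of at least 1 in size were reached by 4, 9 and 5 of the called genes, and by 14.0%, 10.6% and 6.47% of all genes. Since the set was proposed from a knockout comparison, nothing is read from these shares there. The 3 comparisons share libraries pairwise and are not independent of each other.

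Of the 37 genes, 11 were called in the same direction in both knockout comparisons, a property of 21.5% of all tested genes. This count of 11 was 7 without knockout replicate 1 and 16 without control replicate 2. Tgfb1, Inhba, Bmp1, Ltbp1, Skil and Tgif1 were higher (8.19% of all tested genes), and Ltbp3, Smad3, Smad6, Ski and Id2 were lower (13.4%). Bmp1 and Smad6 changed by at least 1 on the log2 scale in both, as did 7.37% of all tested genes. Clone C5 differed in 1 direction from both other groups for 7 genes (13.4% of all tested genes), with Bmp8b and Tgfbr2 higher (7.01%) and Ltbp1, Tgfbr1, Bmpr2, Smad1 and Smad5 lower (6.41%). The parental line differed from both clones for 6 genes (5.85% of all tested genes), with Tgfb2, Id2 and, by way of the filter, Smad9 higher (3.70%) and Bmp4, Bmp8b and Fstl3 lower (2.14%).

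**Figure D1:**
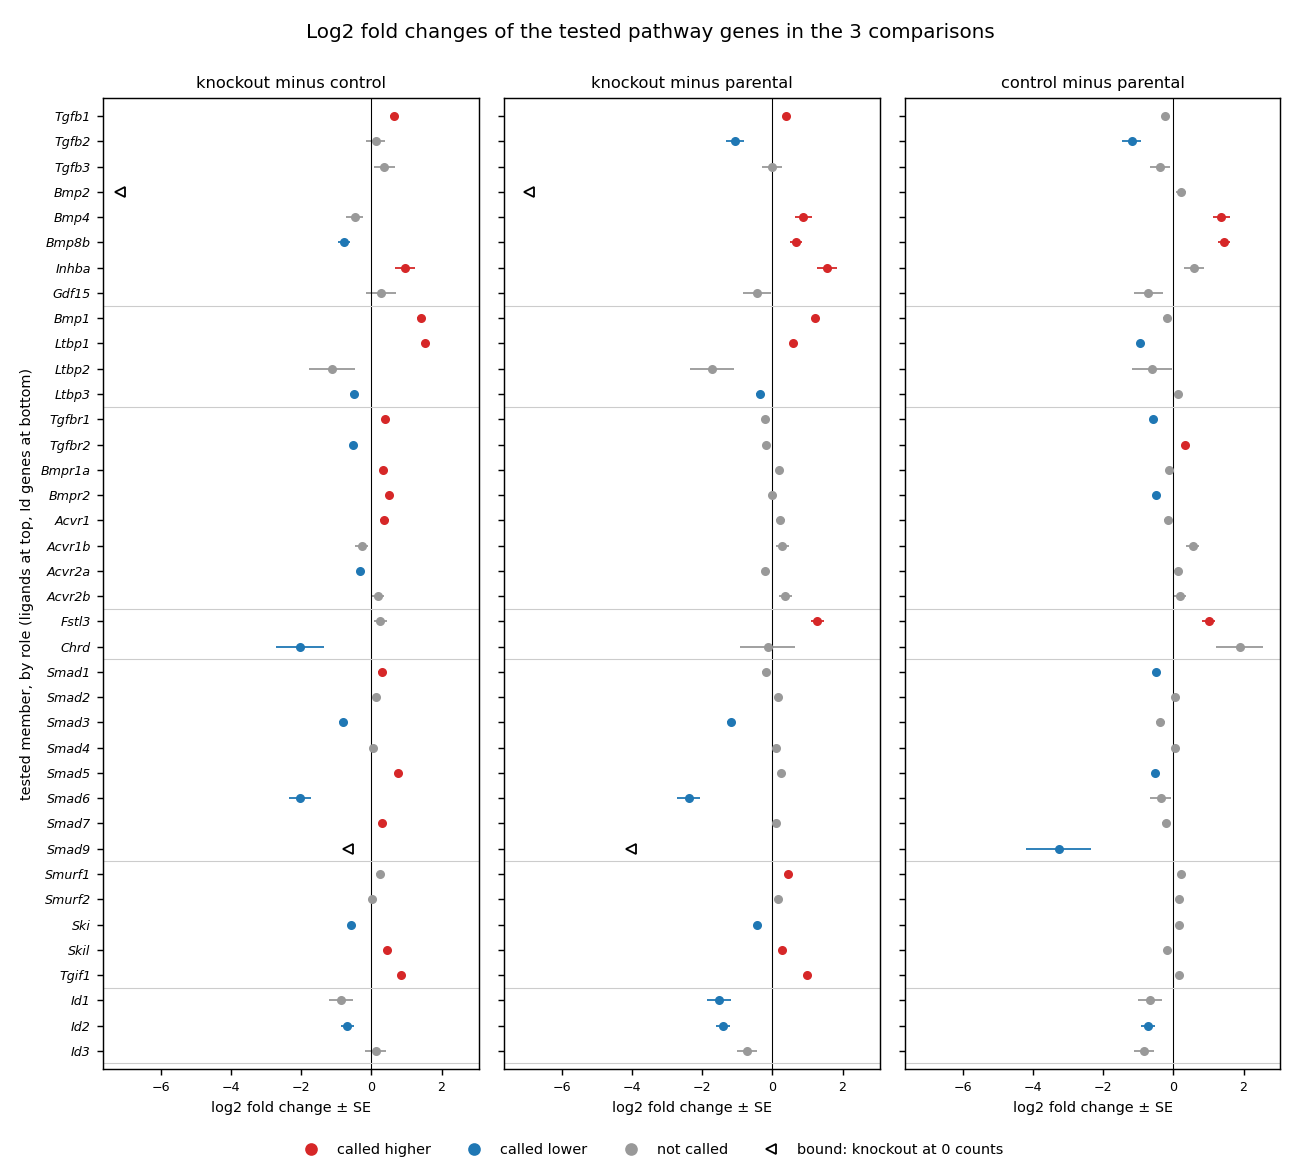
Log2 fold change with its standard error (horizontal axis) of each tested pathway gene (vertical axis, grouped by role from ligands to Id genes) in the 3 comparisons. Red and blue points were called higher and lower at an adjusted p under 0.05, grey points were not called, and open triangles are bounds for Bmp2 and Smad9, which held 0 counts in clone E4. Smad6 lies at -2.02 and -2.39 in the knockout comparisons, and the 8 receptors lie close to 0 against the parental line.

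Among the ligands, Bmp2, a BMP that signals through SMAD1, SMAD5 and SMAD9, was missing from clone E4. Bmp2 (ENSMUSG00000027358, chromosome 2 from 133552159 to 133562885 in GRCm38, plus strand) was at 7.42, 7.55 and 8.08 CPM in the C5 libraries, at 6.65, 6.42 and 6.59 CPM in the parental libraries and at 0 in each E4 library. In counts this was 451 in clone C5, 359 in the parental line and 0 in clone E4, where a count of 0 allows up to 0.054 CPM (3 counts over the group, counting error only). Against that floor clone E4 was at least 142-fold lower than clone C5 and, relative to the parental line, at least 122-fold lower. Between clone C5 and the parental line, a comparison that did not choose the gene, Bmp2 was not called (log2 fold change 0.23, SE 0.14, adjusted p 0.292), although the C5 libraries all lay above the parental ones.

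The 2 nearest tested genes upstream of Bmp2 were expressed in clone E4 at levels close to those of the other groups. Crls1, the second tested gene upstream, was at 45.7 ± 1.33 CPM in clone E4, 45.7 ± 1.1 CPM in clone C5 and 44.7 ± 2.18 CPM in the parental line (SD, n = 3). Fermt1, the nearest tested gene upstream, was at 67.2 ± 5.34, 54.7 ± 14.8 and 62.8 ± 3.63 CPM in these groups (SD, n = 3). Downstream, Hao1 was near 0 in both clones (0.128 and 0.124 CPM in E4 and C5), and Tmx4 was at 30.9 and 28.6 CPM in them and 46.8 CPM in the parental line. Of 17 other tested genes that start within 2 Mb of Bmp2, 4 were called higher and 4 lower against clone C5, and 0 higher and 5 lower against the parental line. Their median log2 fold changes were 0.00 and 0.03. Gene-level counts do not show the DNA of the clone. The genes around Bmp2 were examined after the values were seen.

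**Figure D2:**
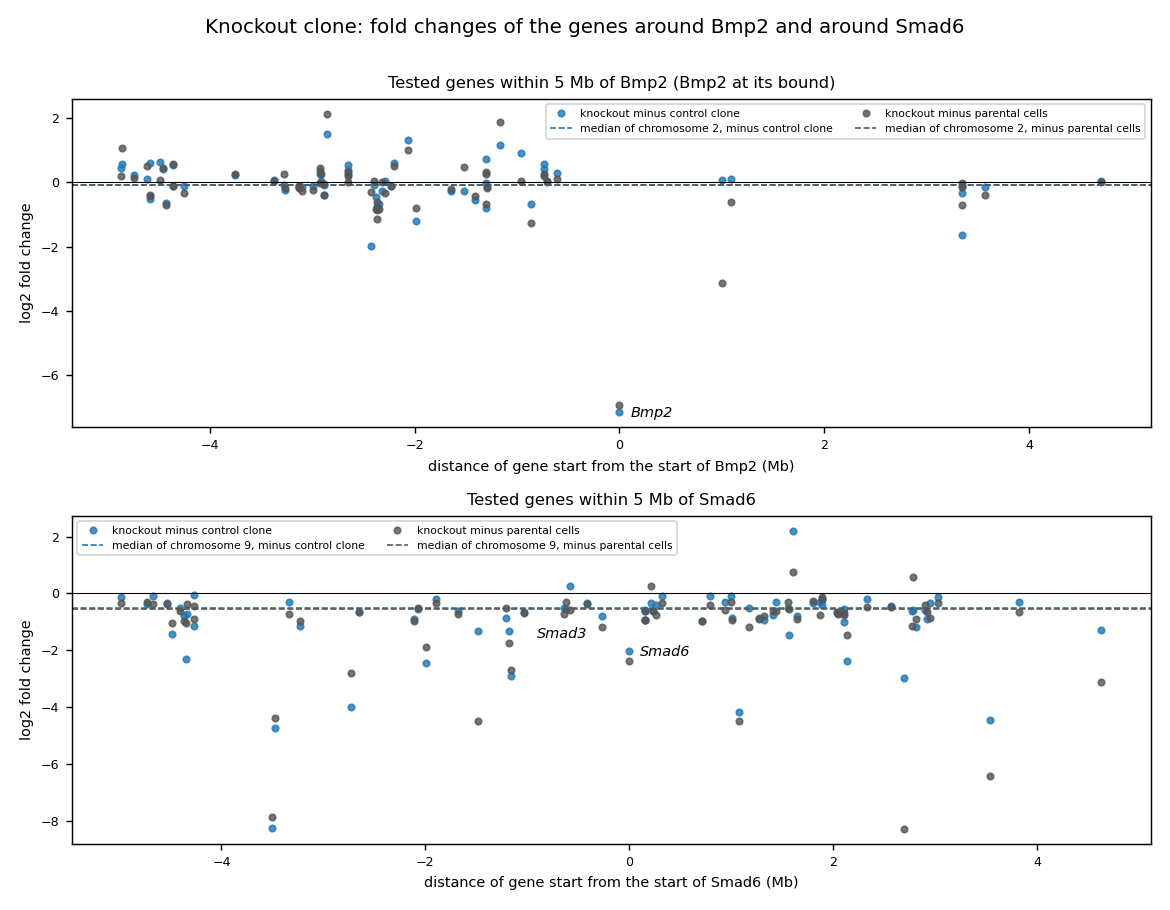
Log2 fold change of each tested gene (vertical axis) against the distance of its start from that of Bmp2 (upper panel) or Smad6 (lower panel) in Mb, for clone E4 minus clone C5 (blue) and minus the parental line (grey). Genes with 0 counts in a group stand at their bound. Dashed lines are the medians of the chromosome, near 0 on chromosome 2 and at -0.53 on chromosome 9, and Bmp2 lies far below its neighbours.

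Bmp4 and Bmp8b were present in clone E4, with mean levels between those of clone C5 and the parental line. Bmp4, the close paralog of Bmp2, was at 21.6, 39.0 and 21 CPM in the C5 libraries, 12, 10.5 and 9.06 CPM in the parental libraries and 17.2, 22.4 and 18.8 CPM in the E4 libraries. All libraries of both clones lay above the parental ones, and the clones overlapped. Bmp4 was 1.36 higher on the log2 scale in clone C5 than in the parental line (SE 0.24, adjusted p 0.00452) and 0.88 higher in clone E4 (SE 0.24, adjusted p 0.0214). The difference between the clones was not called (-0.48, adjusted p 0.124), but was without control replicate 3 (-0.63, adjusted p 0.0485). The knockout call was lost without parental replicate 2 or 3 or knockout replicate 2 or 3 (adjusted p 0.0526 to 0.0799).

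Bmp8b, a BMP known from germ cells and brown fat, was at 71.8, 115 and 74.5 CPM in the C5 libraries, 35.6, 31.1 and 28.8 CPM in the parental libraries and 48.7, 52.9 and 49.9 CPM in the E4 libraries. The 3 groups did not overlap. It stood 1.45 higher on the log2 scale in clone C5 than in the parental line (SE 0.17, adjusted p 0.00073), while clone E4 stood at -0.79 relative to clone C5 (SE 0.17, adjusted p 0.00505) and at 0.66 relative to the parental line (SE 0.17, adjusted p 0.0172). The last call was lost without parental replicate 2 or 3 or knockout replicate 2 (adjusted p 0.051 to 0.0659). Bmp8b shares exon bases with Ppie on the opposite strand, and since the strand setting of the counting is not given in the sources used here, reads of the pair cannot be told apart.

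Of the activin and TGF-beta ligands, Inhba and Tgfb1 rose in clone E4. Inhba, which encodes the activin A subunit, was at 26.8, 57.9 and 27.2 CPM in the C5 libraries, 30.2, 25.0 and 18.5 CPM in the parental libraries and 75.3, 69.5 and 72.3 CPM in the E4 libraries. Every E4 library lay above the other 6, with control replicate 2 nearest to them. The log2 fold change was 1.56 against the parental line (SE 0.29, adjusted p 0.00347) and 0.96 against clone C5 (SE 0.28, adjusted p 0.022). The latter call was lost without control replicate 1 or 3 or knockout replicate 1 or 3 (adjusted p 0.0504 to 0.0793). Inhba lies on chromosome 13, whose 542 tested genes had median log2 fold changes of 0.33 and 0.12 in the comparisons with clone C5 and the parental line.

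Tgfb1, the TGF-beta ligand most highly expressed per length here, was at 47.8, 39.7 and 50.2 CPM in the C5 libraries, 56.2, 52.3 and 54.2 CPM in the parental libraries and 71.9, 74.8 and 67.6 CPM in the E4 libraries. The groups did not overlap. It was 0.64 higher on the log2 scale in clone E4 than in clone C5 (SE 0.10, adjusted p 0.000717) and 0.40 higher than in the parental line (SE 0.10, adjusted p 0.0119), a call lost without parental replicate 2 or 3 or knockout replicate 1 or 2 (adjusted p 0.0515 to 0.0617). Tgfb2 was low throughout and fell in both clones, from 2.26, 1.53 and 2.24 CPM in the parental libraries to 0.917, 0.833 and 0.892 CPM in the C5 libraries and 0.83, 0.89 and 1.17 CPM in the E4 libraries. Its log2 fold change against the parental line was -1.19 in clone C5 (SE 0.27, adjusted p 0.0133) and -1.07 in clone E4 (SE 0.27, adjusted p 0.0141). The first of these was no longer called when parental replicate 1 was left out (adjusted p 0.0621), nor the second without parental replicate 1 or 3 or knockout replicate 1 or 2 (adjusted p 0.0539 to 0.0655). Tgfb3 and Gdf15, a stress-induced distant relative, were at 1.25 to 2.69 and 0.96 to 3.18 CPM and were not called in any of the 3 comparisons, except that Gdf15 was called lower in clone C5 than in the parental line without control replicate 3 (-1.24, adjusted p 0.0342).

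Levels of different genes can be compared per kilobase of exon. Per kilobase, Tgfb1 led the ligands in the parental line at 10.8 CPM, before Bmp8b at 8.21, Bmp4 at 4.68, Inhba at 3.85 and Bmp2 at 1.84 CPM per kilobase. In clone C5 Bmp8b (22.4) and Bmp4 (12.1) stood above Tgfb1 (9.11 CPM per kilobase). In clone E4 the order was Tgfb1 (14.2), Bmp8b (13.0), Inhba (11.3) and Bmp4 (8.66 CPM per kilobase), with Bmp2 at 0. The SD over 3 libraries was up to 6.24 CPM per kilobase for Bmp8b and 4.53 for Bmp4 in clone C5, so the order of Bmp4 and Tgfb1 there lies within their spread.

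**Figure D3:**
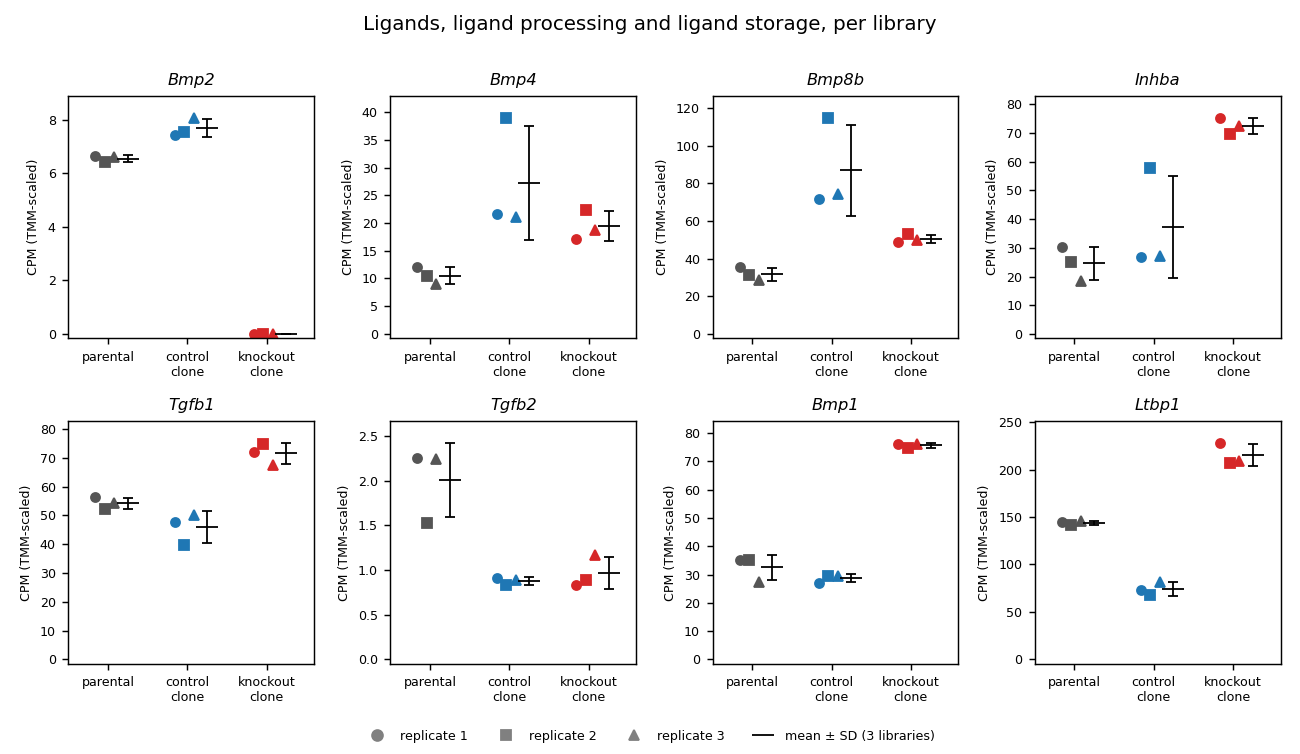
TMM-scaled CPM (vertical axis, from 0) of 6 ligands and of Bmp1 and Ltbp1 in each library, by group (horizontal axis). Symbols mark the replicate number, and black bars give the mean ± SD of 3 libraries. Bmp2 is at 0 in the 3 knockout libraries, Inhba, Tgfb1, Bmp1 and Ltbp1 are highest in them, and control replicate 2 is the highest library for Bmp4 and Bmp8b.

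Genes that process or store the ligands changed in both directions. Bmp1 encodes a secreted metalloprotease, not a BMP ligand, that cleaves procollagens and the BMP antagonist chordin. It was at 76.2, 74.7 and 76.1 CPM in the E4 libraries, 27.1, 29.4 and 29.4 CPM in the C5 libraries and 35.0, 35.2 and 27.2 CPM in the parental libraries. The knockout libraries were far above the other 6, 2.64-fold above clone C5 (log2 fold change 1.40, SE 0.10, adjusted p 1.78e-05) and 2.33-fold above the parental line (1.22, SE 0.10, adjusted p 5.87e-05). Bmp1 lies on chromosome 14, whose 437 tested genes had median log2 fold changes of 0.19 and 0.212 in these comparisons. Ltbp1, a matrix protein that binds latent TGF-beta, was at 228, 207 and 209 CPM in the E4 libraries, 145, 142 and 146 CPM in the parental libraries and 72.8, 67.4 and 81.9 CPM in the C5 libraries. Its groups did not overlap, and it rose in clone E4 by 1.54 against clone C5 (SE 0.09, adjusted p 3.89e-06) and by 0.58 against the parental line (SE 0.08, adjusted p 0.000953), while clone C5 lay 0.96 below the parental line (log2 fold change -0.96, SE 0.09, adjusted p 0.000157). Ltbp1 lies on chromosome 17, whose 687 tested genes had medians of 0.135 against clone C5 and 0.213 against the parental line in clone E4. These chromosome values were computed after the member values were seen.

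Ltbp3, another latent TGF-beta binding protein and the gene of this class with the highest mean CPM in clone C5 and the parental line, though not in clone E4, went the other way. It was at 194, 153 and 182 CPM in the E4 libraries, 273, 235 and 244 CPM in the C5 libraries and 222, 231 and 227 CPM in the parental libraries. Ltbp3 fell by 0.51 on the log2 scale relative to clone C5 (SE 0.10, adjusted p 0.00275) and by 0.36 relative to the parental line (SE 0.10, adjusted p 0.0204). The second call was lost when any 1 of the parental libraries or knockout replicate 2 or 3 was left out (adjusted p 0.053 to 0.078). Ltbp2 was low, at 1.35, 1.3 and 1.12 CPM in the parental libraries, 1.13, 1.19 and 0.157 CPM in the C5 libraries and 0.391, 0.556 and 0.175 CPM in the E4 libraries. It passed the filter on low counts mainly through the parental line, so no test is given.

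The tested receptors differed between groups by less than 1 on the log2 scale. Of 10 receptor genes, 8 were tested, and 0 of these were called between clone E4 and the parental line by edgeR, while 2 had an unadjusted p under 0.05 and 0 were called by DESeq2 or limma voom. A fit of only these groups called 5 of the 8, Bmpr1a (0.20, adjusted p 0.0128), Acvr1 (0.23, adjusted p 0.0191) and Acvr1b (0.29, adjusted p 0.0248) as higher and Tgfbr1 (-0.20, adjusted p 0.0156) and Tgfbr2 (-0.18, adjusted p 0.0472) as lower. That fit called 6840 of all genes, against 4131 in the fit of 9 libraries. Against clone C5 6 of 8 were called, 4 higher (Tgfbr1, Bmpr1a, Bmpr2 and Acvr1) and 2 lower (Tgfbr2 and Acvr2a), with log2 fold changes from -0.51 to 0.50. Over all tested genes 42.9% were called against clone C5 and 31.4% against the parental line. Tgfbr2, the type II TGF-beta receptor and the most abundant receptor by mean CPM in clone C5, was at 150, 167 and 165 CPM in the C5 libraries, 125, 117 and 139 CPM in the parental libraries and 110, 112 and 115 CPM in the E4 libraries. It was 0.51 lower on the log2 scale in clone E4 than in clone C5 (log2 fold change -0.51, SE 0.08, adjusted p 0.000973). Clone C5 was also called higher than the parental line (0.34, SE 0.08, adjusted p 0.0183), but not without parental replicate 1 or 2 or in a fit of only these groups (adjusted p 0.0635 to 0.0922). Bmpr2, the type II BMP receptor, was at 104, 100 and 113 CPM in the C5 libraries, 163, 147 and 138 CPM in the parental libraries and 155, 145 and 149 CPM in the E4 libraries, so it was lower in clone C5 than in both other groups (log2 fold change -0.50 against the parental line, SE 0.08, adjusted p 0.00355). Its difference between knockout clone and the parental line was 0.00 (SE 0.08). Calls for Acvr1 and Acvr2a against clone C5 were lost without single libraries, Acvr1 with adjusted p up to 0.118 and Acvr2a with adjusted p up to 0.0965.

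Among the remaining receptors was Bmpr1a, a type I BMP receptor and the highest of the class per kilobase in the parental line (18.7 CPM per kilobase) and clone E4 (21.4 CPM per kilobase). Acvr2b was at 3.35 to 4.95 CPM and was not called. Tgfbr3, the co-receptor betaglycan, and Bmpr1b had at most 3 counts in any group. When 1 control library was left out, Tgfbr1, Bmpr1a or Acvr1 reached an adjusted p between 0.0326 and 0.0389 against the parental line, with log2 fold changes of -0.21, 0.19 and 0.23.

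Of the 7 antagonists in the set, which include the membrane pseudoreceptor Bambi, the 5 genes Fst, Fstl1, Grem1, Nog and Bambi had 9 counts or fewer in each group. Fstl3, a follistatin-like protein that binds activins, was at 12.5, 18 and 13.2 CPM in the C5 libraries, 9.01, 6.25 and 6.24 CPM in the parental libraries and 16.5, 18.7 and 17.1 CPM in the E4 libraries. Both clones lay above the parental line, by 1.28 in clone E4 (SE 0.19, adjusted p 0.000955) and 1.01 in clone C5 (SE 0.19, adjusted p 0.00526) on the log2 scale. The clones overlapped, with a log2 fold change of 0.26 (adjusted p 0.265), which reached 0.44 (adjusted p 0.0381) without control replicate 2. Chrd, the BMP antagonist chordin that BMP1 cleaves, was low and variable, at 1.66, 0.773 and 2.78 CPM in the C5 libraries, 0.684, 0.445 and 0.117 CPM in the E4 libraries and 0.145, 0.471 and 0.824 CPM in the parental libraries. The E4 and parental libraries overlapped. It passed the filter on low counts through clone C5, so no test is given.

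Among the SMADs, Smad6 and Smad3 fell in clone E4. Smad6, an inhibitory SMAD of the BMP branch (ENSMUSG00000036867, chromosome 9 from 63953076 to 64022059, minus strand), whose promoter with GTCTAGAC is shown above, was at 3.42, 4.01 and 4.67 CPM in the E4 libraries, 14.4, 9.87 and 24.7 CPM in the C5 libraries and 19.2, 18.6 and 25.4 CPM in the parental libraries. The knockout libraries lay below the other 6, which overlapped each other. The level was 4.06-fold lower than in clone C5 (log2 fold change -2.02, SE 0.32, adjusted p 0.000877) and 5.23-fold lower than in the parental line (-2.39, SE 0.32, adjusted p 0.000576), and both calls held in each alternative tried. Smad3, the TGF-beta and activin SMAD, was at 80.6, 71.2 and 85.3 CPM in the E4 libraries, 154, 111 and 150 CPM in the C5 libraries and 176, 181 and 180 CPM in the parental libraries. The groups did not overlap, and Smad3 fell by 0.81 on the log2 scale relative to clone C5 (SE 0.13, adjusted p 0.000843) and by 1.18 relative to the parental line (SE 0.13, adjusted p 0.000182).

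Smad3 and Smad6 are neighbours on chromosome 9, with starts 0.264 Mb apart, and the genes around them were lower in clone E4 as well. Of the 39 other tested genes that start within 2 Mb of Smad6, 27 were called lower and 1 higher against clone C5, and 29 lower and 1 higher against the parental line. Their median log2 fold changes were -0.57 and -0.64. Over the 748 tested genes of chromosome 9 the medians were -0.53 in each comparison, and 53.5% and 54.3% were called lower. Tgfbr2 and Acvr2b, which lie on the same chromosome, had log2 fold changes of -0.51 and 0.19 against clone C5 and -0.18 and 0.37 against the parental line. The part of the chromosome in the values of Smad3 and Smad6 was not tested. These chromosome values were computed after the member values were seen.

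Of the other SMADs, Smad4, the shared SMAD and the most abundant of the class per kilobase in the 3 groups, was at 162, 168 and 167 CPM in the C5 libraries, 160, 158 and 160 CPM in the parental libraries and 173, 162 and 182 CPM in the E4 libraries. It was not called in any of the 3 comparisons or under their alternatives, with log2 fold changes between 0.06 and 0.11 and an SE of 0.07 in each. Smad5, a BMP SMAD on chromosome 13, was at 59.5, 63.2 and 56.5 CPM in the C5 libraries, 91.0, 84.1 and 81.2 CPM in the parental libraries and 102, 93.2 and 107 CPM in the E4 libraries. It was 0.75 higher in clone E4 than in clone C5 (SE 0.08, adjusted p 0.000136) and missed the threshold against the parental line (0.24, SE 0.08, adjusted p 0.0549), where 4 alternatives called it (adjusted p 0.0129 to 0.0294), among them the fits without control replicate 2 or 3. Smad1 was lower in clone C5 than in the parental line (-0.49, SE 0.09, adjusted p 0.00646). Its call between the clones (0.30, adjusted p 0.0295) was lost in 7 alternatives, among them those without control replicate 1 or any 1 of the E4 libraries and with the replicate number as a block (adjusted p 0.0545).

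Smad7, the inhibitory SMAD of both branches, did not follow Smad6. It was at 55.0, 73.3 and 62.4 CPM in the C5 libraries, 76.0, 73.2 and 71.5 CPM in the parental libraries and 74.9, 82.5 and 78.6 CPM in the E4 libraries, and its call as higher than in clone C5 (0.31, SE 0.10, adjusted p 0.036) was lost in 5 alternatives (adjusted p 0.0565 to 0.111), 4 of them fits that left out control replicate 1 or 3 or knockout replicate 2 or 3. Without control replicate 2 it was called lower in clone C5 than in the parental line (-0.33, adjusted p 0.0147). Smad9, the BMP SMAD also known as SMAD8, was seen mainly in the parental line, at 0.819, 0.648 and 1.18 CPM, beside 0, 0 and 0.262 CPM in the C5 libraries and 0 in the E4 libraries. In counts this was 48 in the parental line, 5 in clone C5 and 0 in clone E4, at least 16.2-fold lower in E4 than in the parental line against a floor of 3 counts over the group. It passed the filter on low counts through the parental line, so no test is given.

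The SMAD corepressors split. Tgif1, a homeodomain corepressor of SMAD2 and SMAD3, was at 188, 164 and 190 CPM in the E4 libraries, 97.7, 109 and 95.6 CPM in the C5 libraries and 94.8, 93.2 and 83.5 CPM in the parental libraries. It rose 1.80-fold against clone C5 (log2 fold change 0.85, SE 0.09, adjusted p 0.000113) and to a similar degree, by 0.998 on the log2 scale, against the parental line (SE 0.09, adjusted p 7.96e-05). Tgif1 lies on chromosome 17, with medians of 0.135 and 0.213 over its tested genes in these comparisons. Skil, which encodes the corepressor SnoN and is itself a TGF-beta target, was at 191, 188 and 210 CPM in the E4 libraries, 139, 143 and 148 CPM in the C5 libraries and 173, 158 and 159 CPM in the parental libraries. The knockout libraries lay above the others, by 0.45 against clone C5 (SE 0.07, adjusted p 0.00115) and 0.26 against the parental line (SE 0.07, adjusted p 0.024), a call lost in 5 alternatives, 4 of them without parental replicate 2 or 3 or knockout replicate 1 or 3 (adjusted p up to 0.102).

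Ski, the related corepressor, fell, from 121, 120 and 106 CPM in the C5 libraries and 105, 101 and 105 CPM in the parental libraries to 77.6, 84.2 and 70.1 CPM in the E4 libraries. Ski thus fell by 0.58 on the log2 scale relative to clone C5 (SE 0.09, adjusted p 0.000719) and by 0.43 relative to the parental line (SE 0.09, adjusted p 0.00562). Of the ubiquitin ligases that act on SMADs and receptors, Smurf1 was called higher in clone E4 than in the parental line (0.46, SE 0.10, adjusted p 0.00671), and Smurf2 was not called in any comparison, except against the parental line in a fit of only these groups (0.17, adjusted p 0.0345). Smurf1 was not called between the clones (0.23, adjusted p 0.0779), but was in 3 alternatives, by DESeq2, with scaling to total counts and without control replicate 2 (adjusted p 0.00257 to 0.0481). Between clone C5 and the parental line 0 of these 5 regulators were called by edgeR, where 21.4% of all tested genes were called. Of the 5, 2 had an unadjusted p under 0.05, 1 was called by DESeq2 and 0 by limma voom.

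The mean levels of the 4 Id genes were highest in the parental line. Id1 was at 104, 110 and 151 CPM in the parental libraries, 60.1, 45.2 and 124 CPM in the C5 libraries and 36.2, 52.6 and 37.9 CPM in the E4 libraries. The knockout libraries lay below the parental ones and overlapped clone C5, in which replicate 3 stood in the parental range. Id1 was 2.88-fold lower in clone E4 than in the parental line (log2 fold change -1.53, SE 0.34, adjusted p 0.00848). Against clone C5 it was at -0.86 (SE 0.34, adjusted p 0.066), and was called there when control replicate 2 was left out (-1.12, adjusted p 0.00828), when no filter was used (-0.84, adjusted p 0.0108) and by DESeq2 (-0.85, adjusted p 0.0253). Clone C5 was not called against the parental line (-0.67, adjusted p 0.184), but was without control replicate 3 (-1.20, adjusted p 0.00416).

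Id2, whose promoter window held GGCGCC, was at 231, 235 and 297 CPM in the parental libraries, 156, 108 and 197 CPM in the C5 libraries and 95.2, 88.5 and 103 CPM in the E4 libraries, in 3 separate ranges. It was 1.41 lower on the log2 scale in clone E4 than in the parental line (log2 fold change -1.41, SE 0.20, adjusted p 0.000742), -0.68 against clone C5 (SE 0.19, adjusted p 0.0184) and -0.73 in clone C5 against the parental line (SE 0.19, adjusted p 0.0261). The second call was lost without control replicate 1 or knockout replicate 1 or 2 (adjusted p 0.051 to 0.0742), and the third without any 1 of the parental libraries or control replicate 1 and in the fit of only these groups (adjusted p 0.0565 to 0.0929). Id2 lies on chromosome 12, whose 466 tested genes had medians of -0.25, 0.02 and 0.29 against clone C5, against the parental line and between the latter groups.

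Id3 was at 36.1, 45.8 and 54.3 CPM in the parental libraries, 17.5, 19.3 and 39.7 CPM in the C5 libraries and 24.0, 30.8 and 28.3 CPM in the E4 libraries. The knockout libraries lay below the parental ones, but the log2 fold change of -0.71 (SE 0.29) was not called (adjusted p 0.0885). It was called in 5 alternatives (adjusted p 0.00178 to 0.0473), among them the fit without control replicate 3. Clone C5 was not called against the parental line either (-0.83, adjusted p 0.0684), but was in 5 alternatives (adjusted p 0.00116 to 0.0436), namely without a filter, by DESeq2, by limma voom, with the replicate number as a block and without control replicate 3 (-1.31, adjusted p 0.00116). The difference between the clones was 0.12 (adjusted p 0.762), and 0.59 (adjusted p 0.0212) without that library. Id4 had 12 counts in the parental line, 7 in clone C5 and 2 in clone E4. Its ratio of the parental line to knockout clone was 6.09, with a 95% counting interval from 1.36 to 56.1. Per kilobase, Id1 and Id2 stood at 105 and 104 CPM per kilobase in the parental line, above Id3 at 25.3.

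**Figure D4:**
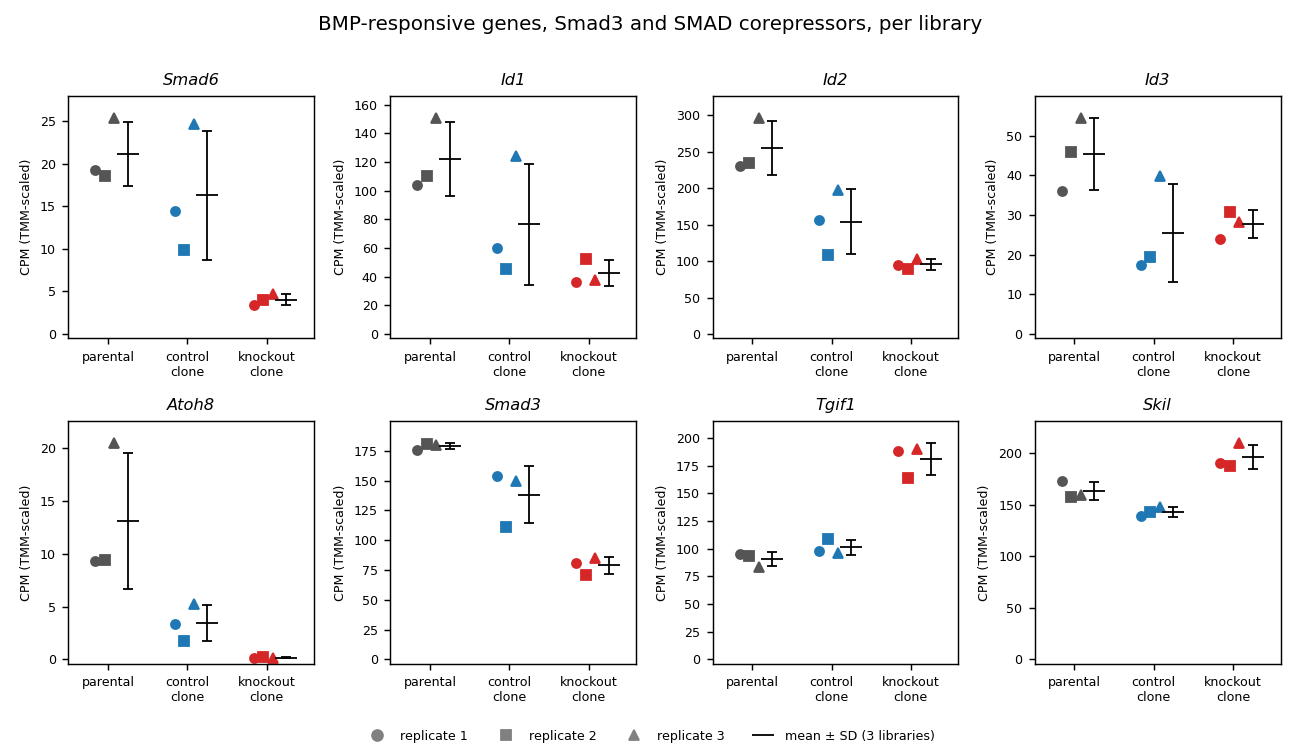
TMM-scaled CPM (vertical axis, from 0) of Smad6, 3 Id genes, the BMP target Atoh8, Smad3 and the corepressors Tgif1 and Skil in each library, by group (horizontal axis). Symbols mark the replicate number, and black bars give the mean ± SD of 3 libraries. Smad6 and Smad3 lie lowest and Tgif1 and Skil highest in the E4 libraries, and control replicate 3 is the highest control library for Smad6, Id1, Id2, Id3 and Atoh8.

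The libraries of clone C5 varied most in these genes. The median SD of log2 CPM over the 37 tested genes was 0.195 in clone C5, 0.116 in the parental line and 0.0995 in clone E4, and 23 of the genes had their largest SD in clone C5. Over all tested genes the medians were 0.241, 0.104 and 0.0935. Control replicate 3 held the highest control values of Id1, Id2, Id3 and Smad6. Control replicate 2 held the lowest control values of Id1, Id2 and Smad6 and the highest of Inhba, Bmp4, Bmp8b and Fstl3. Thbs1, an activator of latent TGF-beta named after its values were seen, was at 169 CPM in control replicate 2 beside 17.3 and 22.1 CPM in the other control libraries. Its E4 libraries were at 234, 226 and 229 CPM and the parental ones at 40.1, 27.2 and 18.8 CPM. Thbs1 was called higher in clone E4 than in the parental line (log2 fold change 2.997, SE 0.772, adjusted p 0.0165), but not against clone C5 (1.735, SE 0.731, adjusted p 0.0818). Within clone C5 the library with the most Inhba and Bmp4 RNA was not the one with the most Id1, Id2 or Id3 RNA. A relation between these ligands and the Id genes was not tested.

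Other genes of the pathways were taken from a list of 100, of which 44 were tested and 28 had no count. Of the 44, 16 were called higher and 8 lower in clone E4 than in clone C5, and 13 higher and 8 lower than in the parental line, with median log2 fold changes of 0.35 and 0.22. The higher counts include Bmp6 in both comparisons and Rgma in the first, which passed the filter through clone E4. Over all tested genes 18.7% were higher and 24.2% lower in the first of these comparisons, with a median of -0.02, and 13.1% and 18.3% in the second, with a median of -0.01. Between clone C5 and the parental line 3 were higher and 9 lower, with a median of -0.09, beside 10.4% higher, 11% lower and a median of 0.01 over all tested genes. The genes of this list apart in clone E4 with at least 2-fold change in both comparisons and 5 CPM in the higher group were Atoh8 and Tgif2. Atoh8, a helix-loop-helix factor known as a BMP target, was at 9.3, 9.37 and 20.5 CPM in the parental libraries, 3.32, 1.78 and 5.2 CPM in the C5 libraries and 0.146, 0.223 and 0.117 CPM in the E4 libraries. The groups did not overlap, and clone E4 stood at -4.36 on the log2 scale relative to clone C5 (SE 0.65, adjusted p 0.000629) and at -6.27 relative to the parental line (SE 0.61, adjusted p 0.000104). Clone C5 stood at -1.92 relative to the parental line (SE 0.41, adjusted p 0.0101).

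Of 16 further antagonists on the list 6 were tested, of which Crim1, Twsg1, Nbl1 and Htra1 had means of 31.4 CPM or more in each group. Against clone C5, Twsg1 (0.33, SE 0.08, adjusted p 0.00959) and Htra1 (0.34, SE 0.08, adjusted p 0.00606) were called higher in clone E4 and Nbl1 lower, and against the parental line Nbl1 was called lower and the other 5 were not called. Nbl1, which encodes a BMP antagonist of the DAN family and is named after its values were seen, was at 31.4, 30.5 and 32.3 CPM in the E4 libraries, 102, 68.9 and 97.7 CPM in the C5 libraries and 44.2, 45.8 and 57.2 CPM in the parental libraries. The groups did not overlap, and Nbl1 fell by 1.51 on the log2 scale relative to clone C5 (SE 0.15, adjusted p 8.64e-05) and by 0.64 relative to the parental line (SE 0.15, adjusted p 0.0115).

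Tgif2, the paralog of Tgif1 and also a SMAD corepressor, moved opposite to it. It was at 1.51, 0.556 and 0.993 CPM in the E4 libraries, 6.2, 5.77 and 4.67 CPM in the C5 libraries and 6.07, 7.01 and 5.53 CPM in the parental libraries, so it fell by 2.42 on the log2 scale relative to clone C5 (SE 0.30, adjusted p 0.000244) and by 2.58 relative to the parental line (SE 0.30, adjusted p 0.000284). It shares exon bases with genes on the opposite strand. Bmp6, a ligand related to BMP5 and BMP7 and named after its values were seen, was below the 5 CPM limit. It was at 2.59, 3.23 and 2.51 CPM in the E4 libraries and at most 0.357 CPM in the other 6. It passed the filter on low counts through clone E4, so no test is given. Bmp6 shares exon bases with Txndc5 on the opposite strand.

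Genes known as targets of TGF-beta or activin and genes known as targets of BMPs were counted as classes. Of 19 TGF-beta and activin targets listed, 9 were tested. In each knockout comparison 5 of them were called higher and 1 lower, with medians of 0.57 against clone C5 and 0.77 against the parental line, where 42.9% and 31.4% of all tested genes were called in either direction. Fn1 (fibronectin), Snai2, Cdkn1a and Itga5 were higher in both comparisons, and Junb was lower in both, all named after their values were seen. Fn1 was at 849, 749 and 821 CPM in the E4 libraries, 494, 449 and 391 CPM in the parental libraries and 152, 157 and 136 CPM in the C5 libraries, a rise of 2.44 on the log2 scale over clone C5 (SE 0.11, adjusted p 9.38e-07) and of 0.86 over the parental line (SE 0.10, adjusted p 0.000305). Of 10 BMP targets listed, 4 were tested (Hes1, Hey1, Atoh8 and Runx2). Against the parental line 3 were lower in clone E4, with a median of -0.97, and 4 were lower in clone C5, with a median of -1.18, where 18.3% and 11% of all tested genes were lower. Between the clones 1 was higher and 1 lower, with a median of 0.29, of the same sign as that of the TGF-beta and activin targets. These targets also answer to other pathways, and the difference between the classes was not tested.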

How the data were processed

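Gene-level values are expected counts that the authors deposited as a table with a column for each library. Per the submitters' processing notes, STAR 2.5.2, RSEM 1.3.0, DESeq2 1.10.1 and build GRCm38 were used, with roles not stated. Libraries were made from total RNA with the KAPA mRNA HyperPrep kit, per the labels' protocols. The annotation release and strand setting are not given in the sources used here. All values were whole numbers. Libraries held 16525869 to 23192701 counts. Symbols, exon lengths and positions come from GENCODE M21 (GRCm38), which held 54809 of 54838 identifiers. Where RSEM made the counts, reads shared by similar or overlapping genes were divided by an estimate, so such genes are uncertain.

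Counts were tested with edgeR 4.0.16 (glmQLFit, glmQLFTest; R 4.3.3) after filterByExpr (minimum count 10, minimum total 15) and TMM scaling, with 9 libraries in 1 fit, group as the only term and contrasts between groups. Calls required an adjusted p under 0.05 (Benjamini-Hochberg, 13153 tested genes), and adjusted p values are from this test unless another is named. SE is the unshrunken log2 fold change over the square root of F. CPM are counts scaled to a common library total after TMM normalisation, and per-kilobase values divide by the union exon length. Bounds use a floor of 3 counts over the group. Intervals and floors cover counting error only, since reads are not independent molecules.

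The members and gene lists were chosen with earlier results of these data known. Values in every library are given for Bmp2, for members called in a comparison and changed there by 1 or more on the log2 scale, for the most abundant member of each role class and for some members called in both knockout comparisons. Members with smaller changes given in full, and other genes so marked, were added after their values were seen. Alternatives were other scalings and filters, DESeq2 1.42.0, limma 3.58.1 (voom), blocking on the replicate number, fits restricted to the pair of groups compared, omission of each library in turn, and a required log2 change of 1. Promoter sequences are from RefSeq, and members on chromosome 18 were left out of the search. Members without a window in the promoter set used, among them Bmp2, Id1 and Bmp1, could not be searched.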

Additional observations from a re-analysis of the deposited data

How the results depend on the processing

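Counts below leave out Bmp2. With a log2 fold change of at least 1 in size also required, 4 of the 22 genes called between clones E4 and C5, 9 of the 18 against the parental line, 5 of the 12 between clone C5 and the parental line and 2 of the 11 called in both knockout comparisons passed, and over all genes 1843, 1392 and 851 passed in the 3 comparisons. In fits of only the groups compared, 28 genes were called between clone E4 and the parental line (6840 of all genes) and 1525 of all genes between clone C5 and the parental line. Such fits leave out the libraries of the remaining group, and the cause of these differences was not tested. With 1 library left out, the counts of called genes ranged from 15 to 26, from 12 to 25 and from 8 to 18 in the 3 comparisons, and from 7 to 16 for those called in both knockout comparisons. Over all genes they ranged from 4301 to 7204, from 2515 to 5693 and from 1472 to 4102. The lowest counts of the pathway genes were without control replicate 1, parental replicate 3 and parental replicate 1 in the 3 comparisons, and the highest without control replicate 2, 3 and 3.

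With the replicate number as a block, 20, 20 and 14 of the genes were called, and 11 in both knockout comparisons. Over all genes 5528, 3941 and 2492 were called with the block, beside 5643, 4131 and 2814 without it. Libraries of the same number did not deviate together in every pair (correlations of deviations from the group mean from -0.134 to 0.212), so the numbers were not taken to pair the libraries. Over 1880 values of single genes under the alternatives, 1739 stayed on their side of the threshold, 80 lost a call, 61 gained one, and 0 values called in either fit changed sign. Some values near 0 that were not called did change sign, such as Tgfb3 between clone E4 and the parental line (0.00, and 0.17 without knockout replicate 2). Genes under about 1 CPM rest on few counts per library, and their values are limited by depth.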
